A study of Mus musculus with 7 samples.

Results

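The genes described here encode the folding and secretion machinery of the endoplasmic reticulum (ER), the compartment in which secreted and membrane proteins are made. They are 41 genes given by name, matched by symbol to the 22173 genes of the deposited expression table, and all 41 were found and passed the filter on low values. RNA of mouse spleens was sequenced, with 7 libraries in all. The control group is PBS (3 libraries), spleens given phosphate-buffered saline. The other group is sHA-X (4 libraries), spleens remodelled by 4 injections of a biomaterial of that name. Both groups had also received hepatocytes, the main cells of the liver, and all spleens were taken 30 days after that transplantation. The strain, age and sex of the mice are not given in the sources used here, and no label says that the libraries are separate mice. The p-values therefore cover the spread between these libraries alone, which may be technical. The study asked whether a remodelled spleen lets transplanted liver cells settle. The comparison below asks whether the ER machinery differed between the groups, with Jchain, the gene of the joining chain of secreted antibodies, as a reference for antibody-secreting cells.

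Proteins enter the ER through the Sec61 channel, receive sugar chains from the oligosaccharyltransferase, are folded by chaperones and disulfide isomerases, and leave in vesicles for the Golgi. Misfolded chains are pulled back into the cytosol and degraded. When unfolded chains build up, the sensors Ire1 (gene Ern1), Atf6 and Perk (gene Eif2ak3) switch on the unfolded protein response, which raises many of these genes. In the spleen the cells best known for a large ER are plasma cells, whose secretory programme is driven by the transcription factor Xbp1.

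Recovered reads per library ranged from 29543963 to 37141978, and a member had between 258 (Casp12) and 65533 (Hsp90b1) reads in a library. Values are FPKM, fragments per kilobase of transcript scaled to library size, so levels can be compared between genes. B cell and red pulp macrophage markers were above 0 in every library labelled spleen. Some libraries held genes of other tissues. The summed level of 9 pancreatic acinar markers was 1022 FPKM in PBS replicate 2 and 15.4 to 35.2 FPKM in the other libraries, where Cela3b, Ctrb1 and Cel were listed at 0. That of 7 skeletal muscle markers was 173 FPKM in sHA-X replicate 2 and 4.73 to 10.1 FPKM elsewhere. That of 8 hepatocyte markers reached 777 and 798 FPKM in the third and the fourth sHA-X library and was 4.20 to 26.7 FPKM in the rest.

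Most of the ER folding genes were higher in sHA-X spleens, while those of the stress sensors and of the transcription factors Chop and Atf4 did not pass the test. The 41 genes summed to 2944, 2993 and 3219 FPKM in the 3 PBS replicates and to 3570.3, 4624, 3656 and 4633 FPKM in the 4 sHA-X replicates, a ratio of means of 1.35. Every sHA-X library was thus above every PBS library, and within sHA-X replicates 2 and 4 stood above replicates 1 and 3. By limma on log2(FPKM + 1), at an adjusted p under 0.05 over all 11920 genes tested, 19 of the 41 rose, which is 46.3%, against 9.30% of all genes tested. The 41 genes were chosen with earlier results of these data known, so shares of them describe the list and are no independent support. None of the 41 fell, where 5.03% of all genes did. Over all genes 1108 rose and 600 fell, a split that another scaling of the libraries shifted to 1024 and 803 (median ratio) or 842 and 738 (upper quartile), with 19 and 16 of the 41 still risen and none fallen. None was lower at an unadjusted p under 0.05 either, and the voom form of limma on recovered reads called none lower. A further 12 were higher at an unadjusted p under 0.05 without passing the adjustment, a count given without a share of all genes. The change was positive for 36 of the 41, against 55.8% of all genes, and its median was 0.44 on the log2 scale over the 41 genes and 0.03 over all genes. For 28 of the 41 every sHA-X library was above every PBS library, against 17.2% of all genes.

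**Figure D1:**
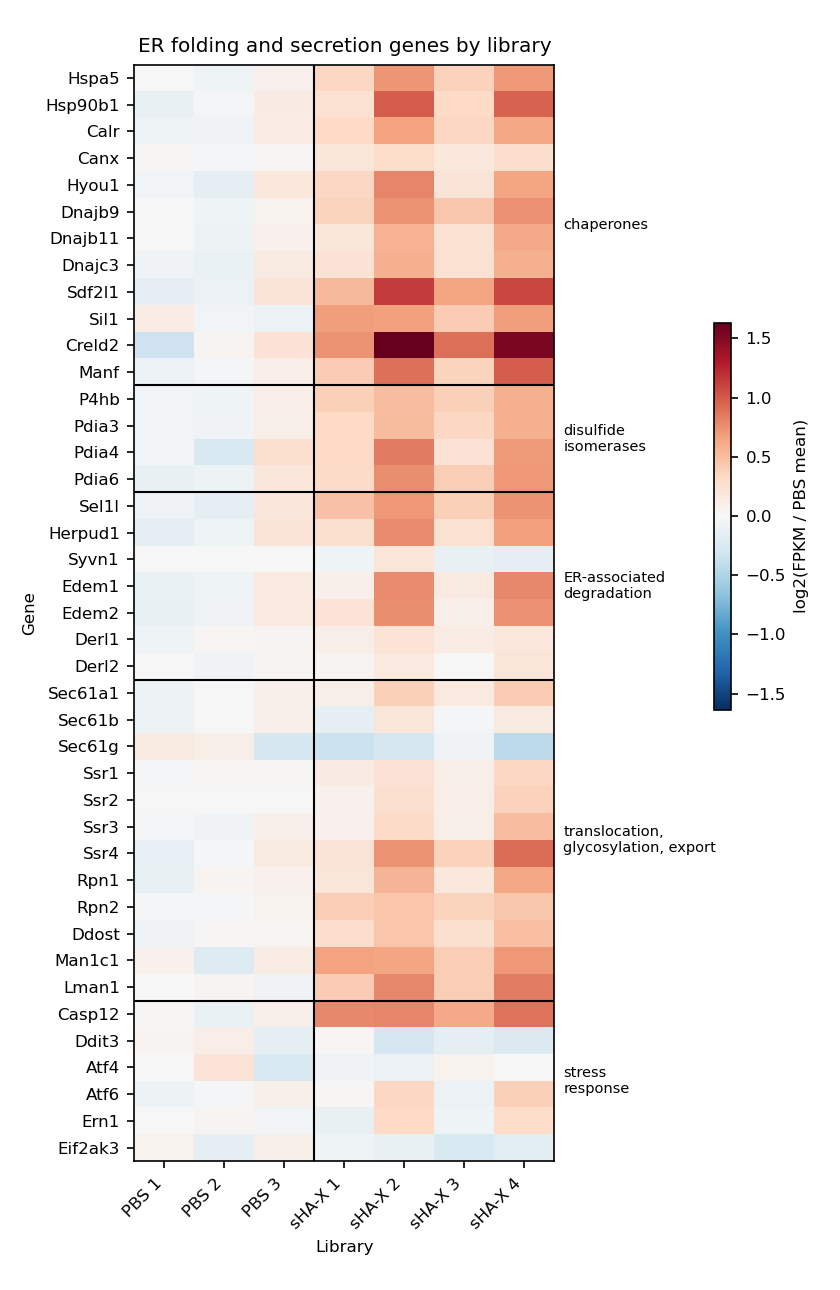
Level of each of the 41 genes in each library as log2(FPKM divided by the PBS mean), with genes in rows ordered by role, libraries in columns, red above and blue below the PBS mean. The chaperone and disulfide isomerase rows are red in all 4 sHA-X columns and, Sil1 apart, deepest in replicates 2 and 4, while Ddit3, Atf4 and Eif2ak3 stay near white.

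The count of risen genes depended on single libraries. It was 6 (14.6%) without PBS replicate 1, where 4.09% of all genes rose, and 11 (26.8%) without PBS replicate 2, where 6.02% did. It was 12 (29.3%) without sHA-X replicate 4, where 712 of 11865 genes rose. It was 2 when the 2 libraries with acinar or muscle genes (replicate 2 of each group) were dropped together, which is 4.88%, close to the 4.13% of all genes that rose in that fit. These fits hold fewer values. The 6 genes called in all 7 fits with 1 library left out were Dnajb9, Sil1, P4hb, Rpn2, Man1c1 and Casp12.

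Chaperones rose most uniformly as a role. All 12 had every sHA-X library above every PBS library, and 10 of 12 passed the test (83.3%, against 9.30% of all genes). Their summed level was 1335 ± 89.8 FPKM (SD, n = 3) in PBS and 2005 ± 365 FPKM (SD, n = 4) in sHA-X. Their median log2 change was 0.51. Hspa5 encodes BiP, the main Hsp70 chaperone of the ER (NCBI gene 14828, chromosome 2, 34772090 to 34776529 on build GRCm38.p6 of RefSeq, as for all gene positions here). It was 296, 282 and 309.6 FPKM in the 3 PBS replicates and 375, 489, 383 and 483 FPKM in the 4 sHA-X replicates. The groups did not overlap, with a log2 change of 0.54 (SE 0.11, limma adjusted p = 0.015), a call lost without PBS replicate 1 (0.062). Calr, the sugar-binding chaperone calreticulin, was 263, 264 and 299 FPKM under PBS and 344, 432, 348 and 427 FPKM under sHA-X (limma adjusted p = 0.018, and up to 0.081 without PBS replicate 1 or 2). Its membrane-bound relative Canx, calnexin, changed least of the 12, from 108 ± 2.43 to 127 ± 5.88 FPKM (adjusted p = 0.028). The call of Canx was lost without replicate 1 or 2 of PBS or 1, 2 or 4 of sHA-X (adjusted p up to 0.0904).

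Hsp90b1, which encodes the ER member of the Hsp90 family, Grp94 (NCBI gene 22027, chromosome 10, 86690841 to 86705444), was the highest of the 41 genes in PBS. Its levels were 298, 321 and 358 FPKM under PBS and 388, 646, 408 and 637 FPKM under sHA-X. All sHA-X libraries were above PBS, but replicates 2 and 4 stood far above 1 and 3, and the log2 change of 0.64 (SE 0.21) did not pass (limma adjusted p = 0.095). Hyou1, a large Hsp70-like chaperone that helps BiP exchange nucleotide, also did not pass, at 26.2 ± 2.95 and 37.5 ± 6.98 FPKM (adjusted p = 0.063), and passed without sHA-X replicate 3 (0.032).

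The largest change among all 41 genes was that of Creld2, a stress-induced ER protein with weak disulfide isomerase activity (NCBI gene 76737, chromosome 15, 88819646 to 88826681). It was 24.5, 31.8 and 36.4 FPKM under PBS and 51.5, 96.0, 57.5 and 89.7 FPKM under sHA-X. The lowest sHA-X library was above the highest PBS library, with a log2 change of 1.19 (SE 0.27, limma adjusted p = 0.034). Of the 7 fits that each dropped a library, the call held only in the fit that dropped sHA-X replicate 1, and the other 6 gave an adjusted p of up to 0.115. Sdf2l1, a partner of the ER Hsp40 proteins (NCBI gene 64136, chromosome 16, 17130138 to 17132383), was 37.0, 38.2 and 47.3 FPKM under PBS and 59.0, 90.2, 63.8 and 87.0 FPKM under sHA-X (log2 change 0.85, SE 0.17, limma adjusted p = 0.021). Without replicate 1 or 2 of PBS or 4 of sHA-X its adjusted p was up to 0.0885. Manf, a secreted and ER-retained factor that binds BiP, went from 122 ± 8.82 to 197 ± 43.5 FPKM (adjusted p = 0.039, and up to 0.141 when a PBS library or sHA-X replicate 2 or 4 was left out).

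The Hsp40 co-chaperones of BiP rose by smaller amounts. Dnajb9 was 36.6, 34.5 and 38.0 FPKM under PBS and 46.9, 60.2, 49.2 and 60.9 FPKM under sHA-X, a log2 change of 0.56 (SE 0.10, limma adjusted p = 0.0099). Dnajb11 went from 34.7 ± 1.89 to 46.4 ± 6.88 FPKM (adjusted p = 0.045). Dnajc3, which also inhibits Perk, went from 36.9 ± 3.56 to 49.4 ± 6.59 FPKM (adjusted p = 0.043). The calls of Dnajb11 and Dnajc3 were lost without replicate 1 or 2 of PBS or 2 or 4 of sHA-X, that of Dnajb11 also without PBS replicate 3 (adjusted p up to 0.132 and 0.146). Sil1, the nucleotide exchange factor of BiP and the lowest of the 41 genes in PBS, was 2.77, 2.46 and 2.38 FPKM under PBS and 4.09, 4.04, 3.38 and 4.07 FPKM under sHA-X (limma adjusted p = 0.0096). Unlike most of the chaperones, Sil1 was about as high in sHA-X replicate 1 as in replicates 2 and 4.

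**Figure D2:**
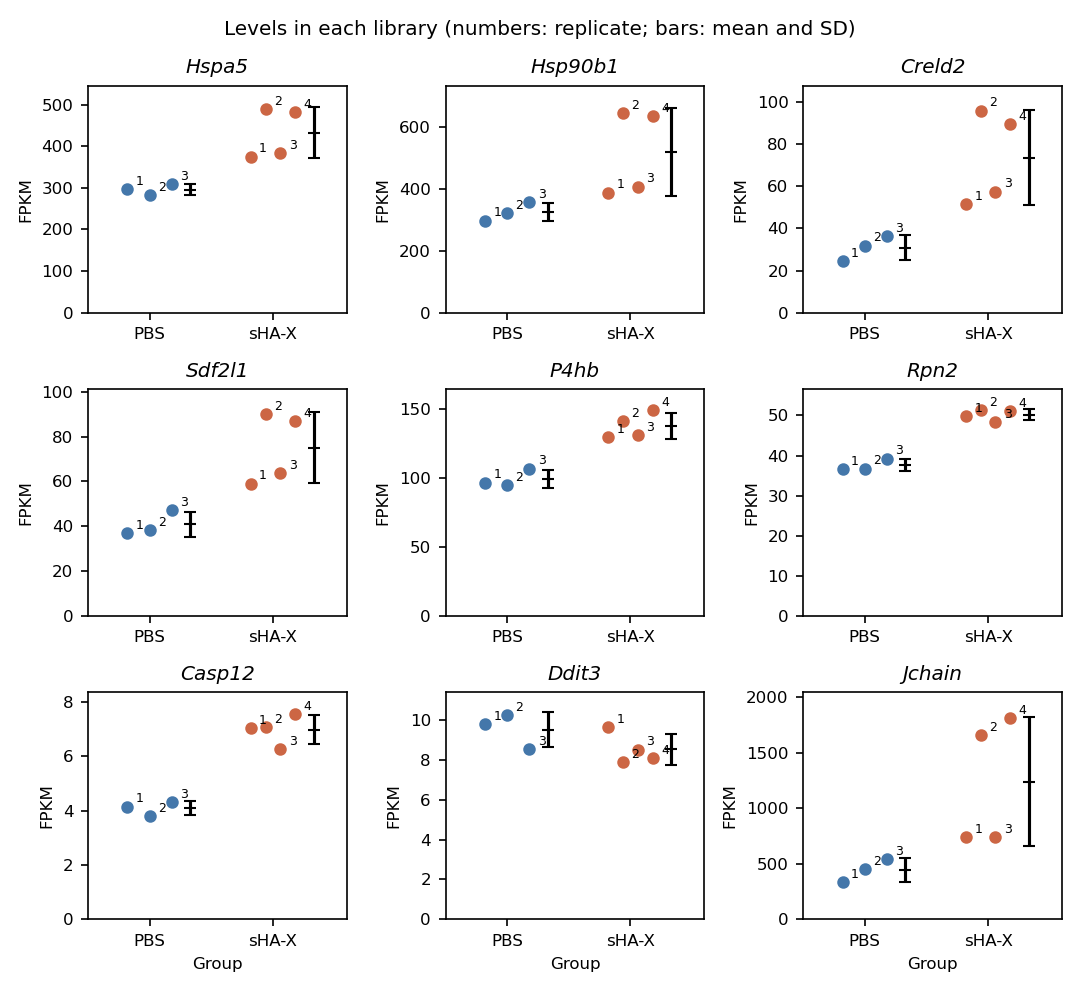
FPKM (vertical axis, from 0) of 8 of the genes and of Jchain in each library by group, with points numbered by replicate and bars for the mean and SD. In Hsp90b1, Creld2, Sdf2l1 and Jchain the sHA-X points fall into a lower pair (replicates 1 and 3) and an upper pair (2 and 4), while in Rpn2 the 4 points lie between 48.3 and 51.4 FPKM.

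Many ER chaperone promoters are known to carry the ER stress element, a CCAAT box and a CCACG box held apart by a fixed spacer, which NF-Y and Atf6 bind together. Promoter sequences of RefSeq (build GRCm38.p6, 250 bases before to 50 after each annotated start) were matched to 33 of the 41 genes, with 35 promoters. The element, CCAAT and CCACG with 9 bases of any kind between them, searched on both strands, was in 8 of these 35 promoters (22.9%) and in 39 of all 32851 promoters (0.119%). The 9 copies are shown because the genes that carry them include the main chaperones described above. Each is written 5′ to 3′ along its own strand, with the 2 boxes in capitals.
Calr: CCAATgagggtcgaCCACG
Canx: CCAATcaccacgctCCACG
Creld2: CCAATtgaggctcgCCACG
Dnajc3: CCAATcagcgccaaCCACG
Hsp90b1 (upstream copy): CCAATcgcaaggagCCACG
Hsp90b1 (downstream copy): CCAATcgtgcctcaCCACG
Hspa5: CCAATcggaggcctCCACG
Pdia6: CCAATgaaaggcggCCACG
Syvn1: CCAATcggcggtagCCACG
Of the 8 genes with the element, 6 rose, and Hsp90b1 and Syvn1 did not pass. The shorter ER stress element II, ATTGG and CCACG with 1 base between them, was found in the promoters of Dnajb11 and Herpud1 and in 0.0365% of all promoters. The UPR element TGACGTGG was in none of the 35 promoters and in 0.676% of all. Of the 23 matched genes with neither stress element, 9 rose. Over all genes tested 9.30% rose, so both counts describe the chosen list and not the element. The search took exact letters in this window, so a gene without a match is not shown to lack such an element. These matches are descriptions of letters in a window and were not tested as binding sites. The element II of Dnajb11 lies from base 8 to base 18 after the start.

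The 250 bases before the start are shown for 5 genes, to set the position of the element beside the change. Hspa5 and Creld2 rose and have 1 copy each, Hsp90b1 has 2 copies in opposite orientations, Sdf2l1 rose with no exact copy, and Syvn1 has 1 copy and did not rise. Capitals mark the 19-base element, and each sequence is the gene's own strand, 5′ to 3′.
Hspa5 (chr2:34771840-34772089, plus strand): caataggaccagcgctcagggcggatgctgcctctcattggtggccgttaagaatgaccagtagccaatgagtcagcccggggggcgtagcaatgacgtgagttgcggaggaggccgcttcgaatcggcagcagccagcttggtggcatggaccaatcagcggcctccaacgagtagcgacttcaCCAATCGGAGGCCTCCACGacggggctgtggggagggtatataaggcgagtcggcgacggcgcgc
Hsp90b1 (chr10:86705445-86705694, minus strand): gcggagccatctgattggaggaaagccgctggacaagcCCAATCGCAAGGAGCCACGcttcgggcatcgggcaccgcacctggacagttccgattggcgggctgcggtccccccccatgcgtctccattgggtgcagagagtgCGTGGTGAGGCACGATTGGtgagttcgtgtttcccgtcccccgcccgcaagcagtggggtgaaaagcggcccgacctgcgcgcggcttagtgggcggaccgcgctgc
Creld2 (chr15:88819396-88819645, plus strand): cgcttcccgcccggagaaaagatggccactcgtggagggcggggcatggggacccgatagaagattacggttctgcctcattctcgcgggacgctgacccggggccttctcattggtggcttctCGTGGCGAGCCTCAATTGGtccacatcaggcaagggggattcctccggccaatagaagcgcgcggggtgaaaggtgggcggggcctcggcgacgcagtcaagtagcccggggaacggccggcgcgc
Sdf2l1 (chr16:17132384-17132633, minus strand): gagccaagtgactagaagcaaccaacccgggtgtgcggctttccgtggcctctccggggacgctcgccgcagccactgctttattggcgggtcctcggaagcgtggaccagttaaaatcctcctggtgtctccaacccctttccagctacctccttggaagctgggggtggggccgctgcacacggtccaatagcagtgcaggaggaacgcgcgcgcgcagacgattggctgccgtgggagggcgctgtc
Syvn1 (chr19:6046326-6046575, plus strand): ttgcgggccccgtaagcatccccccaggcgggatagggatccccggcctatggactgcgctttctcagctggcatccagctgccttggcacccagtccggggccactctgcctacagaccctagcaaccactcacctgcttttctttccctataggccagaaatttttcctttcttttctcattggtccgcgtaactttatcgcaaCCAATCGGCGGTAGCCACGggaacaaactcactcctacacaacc
Counted from the start, the element lies at -65 to -47 in Hspa5, at -126 to -108 in Creld2, at -212 to -194 and -107 to -89 in Hsp90b1, and at -44 to -26 in Syvn1.

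Of the 4 disulfide isomerases, which form and reshuffle disulfide bonds in folding chains, 3 rose (75%, against 9.30% of all genes). None fell, where 5.03% of all genes did, and the median log2 change was 0.50. P4hb, the archetypal protein disulfide isomerase (NCBI gene 18453, chromosome 11, 120560298 to 120573253), was 96.6, 94.8 and 107 FPKM under PBS and 129.7, 141, 131 and 149 FPKM under sHA-X. The 4 sHA-X libraries lay close together and above PBS, with a log2 change of 0.47 (SE 0.07, limma adjusted p = 0.0052). Pdia3, which works with calreticulin and calnexin on glycoproteins, was 181, 179 and 199.999 FPKM under PBS and 234, 266, 236 and 279.7 FPKM under sHA-X (adjusted p = 0.011, and 0.055 without PBS replicate 1). Pdia6 went from 94.2 ± 11.6 to 139 ± 21.0 FPKM (adjusted p = 0.026, and up to 0.106 without replicate 1 or 2 of PBS or 2 or 4 of sHA-X). Pdia4 did not pass. It was 89.8, 78.1 and 111 FPKM under PBS and 116, 167, 109 and 151 FPKM under sHA-X, so that sHA-X replicate 3 was below PBS replicate 3 (adjusted p = 0.095).

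Of the 7 genes of ER-associated degradation, 1 rose (14.3%, against 9.30% of all genes) and 6 did not pass. Their median log2 change was 0.44, and in 3 of the 7 every sHA-X library was above every PBS library. The gene that rose was Sel1l, the scaffold of the Hrd1 ubiquitin ligase (NCBI gene 20338, chromosome 12, 91806043 to 91849157), with 18.8, 17.6 and 22.1 FPKM under PBS and 27.1, 31.8, 25.5 and 32.4 FPKM under sHA-X (log2 change 0.56, SE 0.11, limma adjusted p = 0.011, and 0.058 without PBS replicate 1). Syvn1, which encodes the ligase Hrd1 itself, did not pass (adjusted p = 0.80). Its levels were 31.3, 31.0 and 30.9 FPKM under PBS and 29.5, 35.5, 28.5 and 27.8 FPKM under sHA-X (log2 change -0.04, SE 0.08). Edem1, a lectin that hands misfolded glycoproteins to degradation, overlapped between the groups. It was 35.9, 36.8 and 42.9 FPKM under PBS, 40.9 and 42.5 FPKM in replicates 1 and 3 of sHA-X, and 65.9 and 66.4 FPKM in replicates 2 and 4 (limma adjusted p = 0.20). Its relative Edem2 had the same lower and upper pair of sHA-X libraries, with 26.5, 38.3, 24.1 and 38.2 FPKM against 22.7 ± 2.29 FPKM under PBS (adjusted p = 0.15). Herpud1, a stress-induced organiser of the ligase, was 77.7 ± 10.7 and 110.2 ± 20.6 FPKM and did not pass (adjusted p = 0.077). The derlins Derl1 (47.1 ± 2.03 and 52.5 ± 2.09 FPKM) and Derl2 (13.7 ± 0.511 and 14.8 ± 0.960 FPKM), which form part of the retrotranslocation channel, changed by 0.15 and 0.10 on the log2 scale and did not pass.

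Of the 12 genes of translocation, glycosylation and export, 4 rose (33.3%, against 9.30% of all genes) and none fell, with a median log2 change of 0.32. The 4 were 2 subunits of the oligosaccharyltransferase, a Golgi mannosidase and a cargo receptor. Rpn2, a subunit of the oligosaccharyltransferase (NCBI gene 20014, chromosome 2, 157279098 to 157326318), was 36.7, 36.8 and 39.2 FPKM under PBS and 49.8, 51.4, 48.3 and 51.2 FPKM under sHA-X. Its highest sHA-X library was only 1.06 times its lowest, the narrowest spread of the 41 genes, and the log2 change of 0.41 (SE 0.05) had an adjusted p of 0.0026 by limma. Ddost, another subunit, went from 58.0 ± 1.91 to 75.4 ± 6.02 FPKM (adjusted p = 0.012, and 0.063 without PBS replicate 1). The partner subunit Rpn1 did not pass, with 44.9, 50.04 and 50.9 FPKM under PBS and 55.9, 71.6, 54.6 and 75.3 FPKM under sHA-X (adjusted p = 0.073). Man1c1, an alpha-mannosidase of the Golgi, was 5.34, 4.39 and 5.53 FPKM under PBS and 7.999, 7.95, 6.73 and 8.28 FPKM under sHA-X (limma adjusted p = 0.0095). Lman1, the cargo receptor that carries glycoproteins from the ER to the Golgi, was 21.0, 21.6 and 20.1 FPKM under PBS and 28.0, 35.9, 27.7 and 37.2 FPKM under sHA-X (log2 change 0.59, SE 0.11, adjusted p = 0.012, and 0.051 without PBS replicate 1).

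The 3 genes of the channel did not pass the test. Sec61a1, the pore subunit, was 58.7 ± 3.37 and 70.9 ± 7.74 FPKM (limma adjusted p = 0.0903), and the small subunit Sec61b 168 ± 9.43 and 174 ± 18.8 FPKM (adjusted p = 0.81). Sec61g, the other small subunit, was lower in sHA-X without passing, with 132, 127 and 98.6 FPKM under PBS and 93.8, 98.9, 115 and 88.9 FPKM under sHA-X (log2 change -0.26, adjusted p = 0.19). Sec61g was called lower without PBS replicate 3, where its log2 change was -0.39 (adjusted p = 0.033). The translocon-associated genes Ssr1, Ssr2, Ssr3 and Ssr4 did not pass. Ssr4 had the largest difference of these, with 75.2, 80.6 and 90.7 FPKM under PBS and 94.98, 136, 107 and 154 FPKM under sHA-X (adjusted p = 0.071), and passed without sHA-X replicate 1 (0.029).

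Of the 6 stress response genes, 1 rose (16.7%, against 9.30% of all genes). Their summed level was 192 ± 22.2 FPKM under PBS and 192 ± 4.73 FPKM under sHA-X. Casp12, the ER-associated caspase (NCBI gene 12364, chromosome 9, 5345442 to 5373034), was 4.15, 3.81 and 4.31 FPKM under PBS and 7.03, 7.09, 6.26 and 7.55 FPKM under sHA-X. The groups were well apart, with a log2 change of 0.65 (SE 0.08, limma adjusted p = 0.0017), the smallest p of the 41 genes. Ddit3, which encodes the death-promoting factor Chop that prolonged stress induces, did not pass the test. It was 9.80, 10.3 and 8.54 FPKM under PBS and 9.66, 7.89, 8.52 and 8.10 FPKM under sHA-X (log2 change -0.14, SE 0.09, adjusted p = 0.32). Atf4, the transcription factor translated when Perk is active, was 142, 164 and 118 FPKM under PBS and 136, 132, 147 and 141 FPKM under sHA-X (adjusted p = 0.96). Atf4 is largely controlled at translation, which RNA levels do not show. The 3 sensors did not pass. Atf6 was 13.5 ± 0.787 and 15.3 ± 2.44 FPKM, Ern1 5.996 ± 0.168 and 6.53 ± 1.06 FPKM, and Eif2ak3 17.3 ± 1.64 and 15.5 ± 0.809 FPKM (adjusted p = 0.42, 0.61 and 0.25). In Atf6 and Ern1 sHA-X replicates 2 and 4 were again the higher pair, with 17.1 and 17.7 FPKM against 13.7 and 12.7 FPKM for Atf6.

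Jchain (NCBI gene 16069, chromosome 5, 88519809 to 88527897) was 331, 452 and 544 FPKM in the 3 PBS replicates and 736, 1661, 739.9 and 1812 FPKM in the 4 sHA-X replicates. All sHA-X libraries were above PBS, and sHA-X replicates 2 and 4 stood far above 1 and 3, the highest at 2.46 times the lowest. The log2 change of 1.38 (SE 0.42) did not pass (limma adjusted p = 0.089). In bulk tissue, fewer cells of a type and less RNA per cell cannot be told apart, and the same holds for a gain. The split of the sHA-X libraries in Jchain recurred in the ER genes. In 34 of the 41 both sHA-X replicates 2 and 4 were above both 1 and 3, against 27.1% of all genes tested. In 34 of the 41 PBS replicate 3 was the highest of PBS, against 52.1% of all genes.

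**Figure D3:**
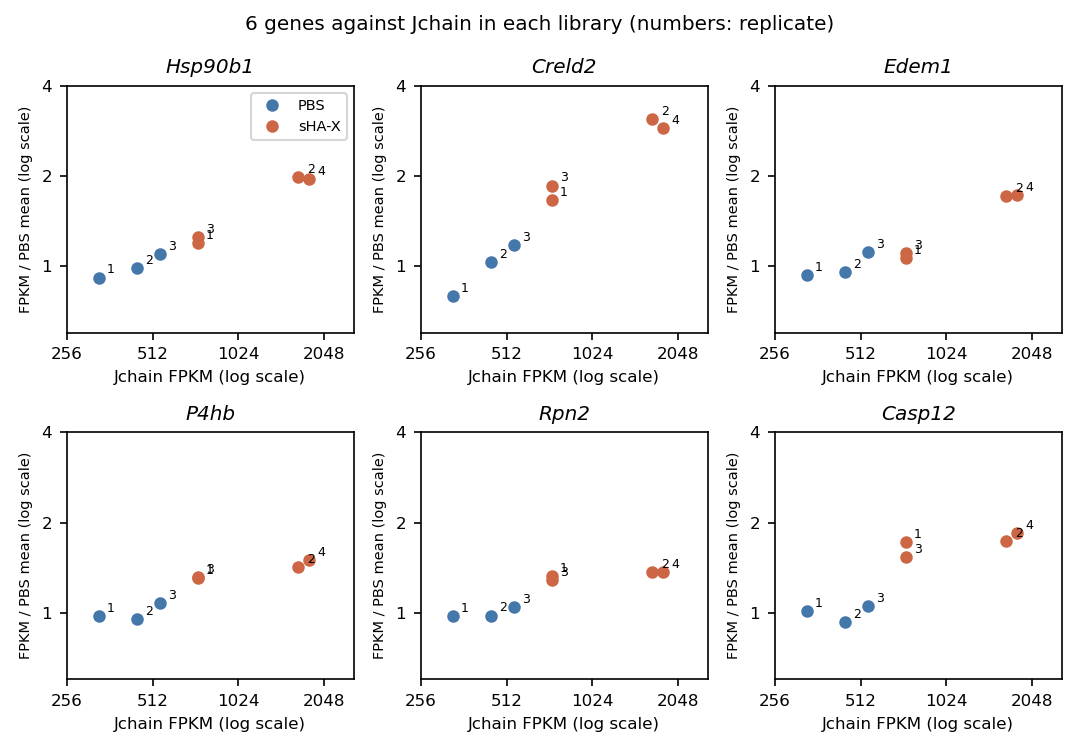
Level relative to the PBS mean (vertical, log scale) of 6 genes against Jchain FPKM (horizontal, log scale) in each of the 7 libraries, blue for PBS and orange for sHA-X, numbered by replicate. Hsp90b1, Creld2 and Edem1 climb across both sHA-X pairs, while Rpn2 and Casp12 differ between the groups and vary little with Jchain within sHA-X.

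A fit with the group and log2(Jchain FPKM + 1) as terms gave each gene a slope on Jchain, the change in its own log2 level for each doubling of Jchain with the group held. Slopes were above 0 for 38 of the 41 genes, against 59.8% of all genes, with a median of 0.23 against 0.02 over all genes. Over all genes few slopes passed the adjustment, 0.159% above 0, and 3 of the 41 ER genes were among them. They were Creld2 (slope 0.63, SE 0.07, limma adjusted p = 0.021), Hsp90b1 (0.53, SE 0.06, adjusted p = 0.032) and Edem1 (0.50, SE 0.06, adjusted p = 0.032). At an unadjusted p under 0.05, 29 of the 41 had a slope above 0, against 6.63% of all genes. The slopes of Rpn2 (0.06, SE 0.05), Sil1 (0.04, SE 0.09) and Casp12 (0.09, SE 0.07) were near 0. The genes share the 7 libraries and are not independent of each other. No slope of the 41 passed when any sHA-X library or PBS replicate 1 was left out, and 6 passed without PBS replicate 2 and 6 without PBS replicate 3. The counts over all genes in those fits are not given here, so these counts do not set the 41 apart from other genes.

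With Jchain in the fit none of the 41 genes differed between the groups at an adjusted p under 0.05, where 1.49% of all genes were higher and 0.982% lower. At an unadjusted p under 0.05, 9 of the 41 passed, of which Sil1, Creld2, P4hb, Rpn2, Man1c1 and Casp12 were higher and Edem1, Sec61b and Atf6 lower. No share of all genes at that threshold is given here, so this count only lists the genes. The median log2 change of the 41 went from 0.44 to 0.04. That of Hspa5 went from 0.54 to 0.18, that of Hsp90b1 from 0.64 to -0.09, and that of Edem1 from 0.44 to -0.25. In that fit Casp12 had the largest change of the 41, 0.52, against 0.65 without Jchain, and was no longer called (limma adjusted p = 0.076). The changes of Sil1 (0.47 to 0.42) and Rpn2 (0.41 to 0.32, adjusted p = 0.0998) also moved little. Jchain itself did not overlap between the groups, so a difference between groups and a difference that follows Jchain can only partly be told apart. The plasma cell gene Mzb1 was called lower with Jchain in the fit (log2 change -0.60, limma adjusted p = 0.035), against 0.51 without Jchain. In the same fit the other plasma cell markers described below ranged from -1.21 (Eaf2) to 0.02 (Sdc1) and were not called. What the loss of the ER calls reflects was not tested.

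**Figure D4:**
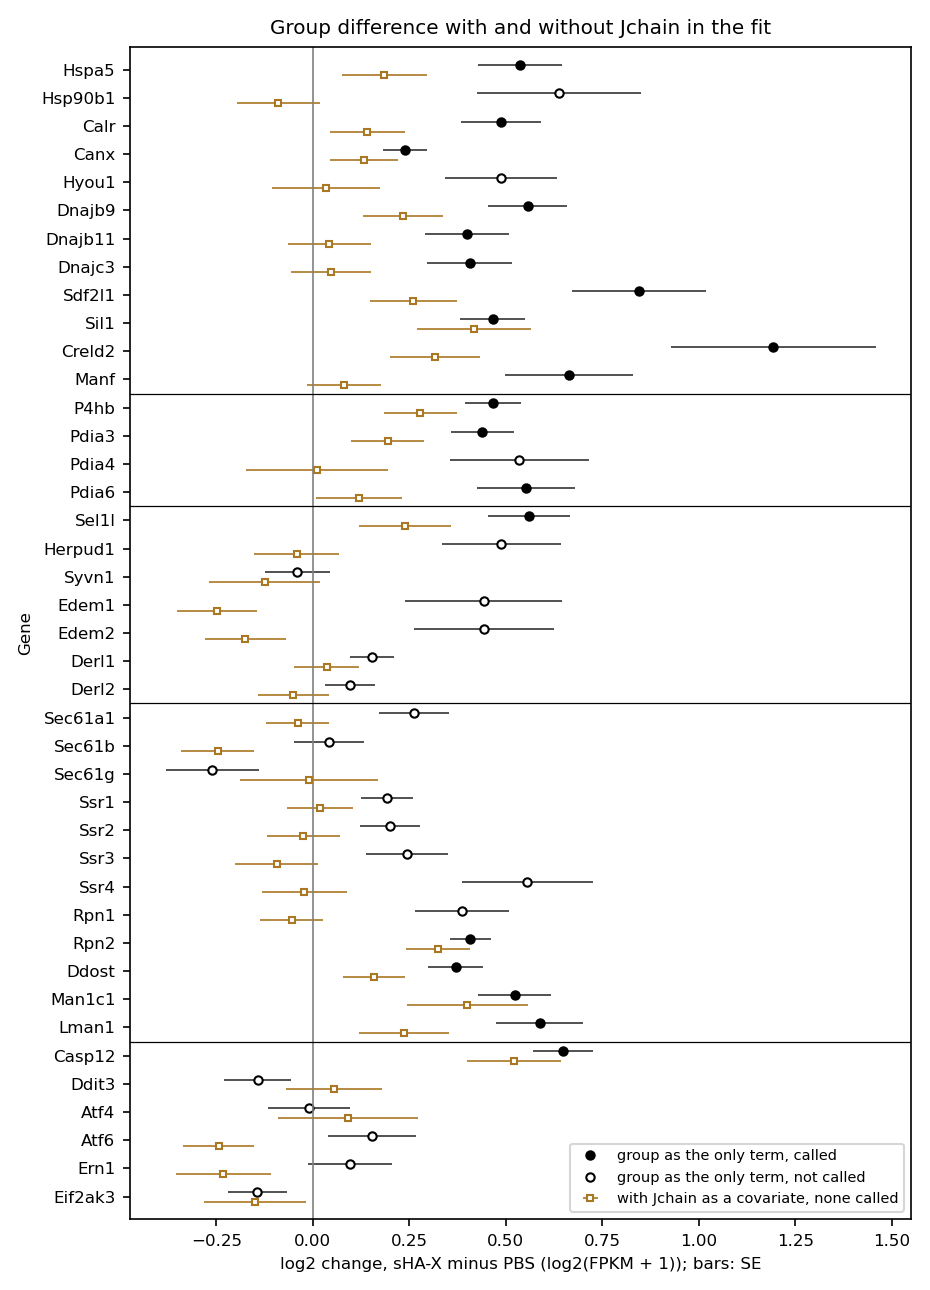
Log2 change between sHA-X and PBS with its SE for each of the 41 genes, by role, with the group as the only term (circles, filled where called) and with Jchain as a second term (squares). The squares of Creld2, Rpn2, Man1c1, Sil1 and Casp12 lie at 0.32 to 0.52, and those of the other genes between -0.25 and 0.28.

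The levels of other plasma cell genes also split the sHA-X libraries. Sdc1, the plasma cell surface marker CD138, was 4.56, 6.45 and 5.50 FPKM under PBS and 8.11, 13.3, 7.39 and 14.0 FPKM under sHA-X (limma adjusted p = 0.073). Tnfrsf17, the survival receptor BCMA, was 1.10, 1.06 and 1.72 FPKM under PBS and 1.27, 4.36, 1.19 and 3.84 FPKM under sHA-X (adjusted p = 0.38). Of the 8 plasma cell markers listed none was called, and in 7 of them sHA-X replicates 2 and 4 were above 1 and 3. The 8, which include Jchain, summed to 592 to 805 FPKM under PBS and 978 to 2251 FPKM under sHA-X, and none was at 0. Without Jchain the other 7 summed to 260.4, 285 and 261 FPKM under PBS and 241, 433, 244 and 439 FPKM under sHA-X. The groups then overlapped, with sHA-X replicates 1 and 3 below every PBS library and 2 and 4 above. That order depends in part on Tent5c, the marker without the split. Tent5c was 95.6, 95.7 and 38.3 FPKM under PBS and 53.5, 54.8, 57.2 and 60.3 FPKM under sHA-X. In Mzb1, with 133, 155 and 185 FPKM under PBS and 155, 321, 157 and 321 FPKM under sHA-X, replicates 1 and 3 lay within the PBS range. Other cell types moved between the groups as well. All 10 macrophage markers rose (sums of 1226 to 1551 FPKM under PBS and 2446 to 2669 FPKM under sHA-X), and 6 of 7 fibroblast markers rose (136 to 189.7 and 361 to 568 FPKM). Of 8 B cell markers 6 fell (1680.4 to 2006 and 1147 to 1322 FPKM). Within sHA-X the macrophage sums were 2586, 2446, 2577 and 2669 FPKM in replicates 1 to 4, and the fibroblast sum was highest in replicate 1. Neither sum had replicates 2 and 4 above 1 and 3. Counted by marker, 3 of 10 macrophage markers (30%) and 0 of 7 fibroblast markers had that order, against 27.1% of all genes. All 6 neutrophil markers and 4 of 5 T cell markers, Cd8a being the exception, had it. None of the neutrophil markers was called, and their sums were 2662, 2669.8 and 1579 FPKM under PBS and 2841, 4448, 3204 and 3796 FPKM under sHA-X. No neutrophil marker was highest of PBS in replicate 3, unlike Jchain. All 5 T cell, all 8 B cell and all 10 macrophage markers were, as were 5 of the 8 plasma cell and 1 of the 7 fibroblast markers. Of the T cell markers 1 fell, with sums of 165 to 222 FPKM under PBS and 129, 168, 133 and 179 FPKM under sHA-X. No marker of these 6 cell types was at 0 in any library. The 6 erythroid markers summed to 18577, 18407 and 9743 FPKM under PBS and 10071, 7256, 11167 and 7575 FPKM under sHA-X. This sum was lowest of PBS in replicate 3, and within sHA-X lower in replicates 2 and 4 than in 1 and 3. Of the erythroid markers 1 fell (16.7%, against 5.03% of all genes), and 0 had sHA-X replicates 2 and 4 above 1 and 3. The part of each cell type in the ER genes was not tested. PBS replicate 2, the library with acinar genes, had 2993 FPKM of the 41 genes, between the other PBS libraries.

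Of 87 other ER genes that are not among the 41, 83 passed the filter, 15 rose and none fell. That is 18.1% of those tested, against 9.30% of all genes, and their median log2 change was 0.18. That excess was not seen under every setting. With upper quartile scaling 6 of 83 rose (7.23%, against 7.06% of all genes), and without PBS replicate 1 only 1 of 84 did (1.19%, against 4.09%). The smallest p was that of Kdelr3, a receptor that returns escaped chaperones from the Golgi to the ER (NCBI gene 105785, chromosome 15, 79516408 to 79527739). Kdelr3 was 1.43, 1.11 and 1.67 FPKM under PBS and 3.99, 4.41, 3.76 and 5.10 FPKM under sHA-X (log2 change 1.15, SE 0.12, limma adjusted p = 0.00096, and 0.042 with Jchain in the fit). Its relative Kdelr2 went from 29.8 ± 0.109 to 37.4 ± 2.22 FPKM (adjusted p = 0.011, and 0.052 without PBS replicate 1). The genes that rose also included the vesicle proteins Ergic1, Mcfd2, Sar1b and Tmed10 and the segregase Vcp, which extracts degradation substrates. Mcfd2, the partner of Lman1, was 31.4 ± 4.37 and 40.7 ± 1.18 FPKM. Each of these 5 calls was lost in 1 to 6 of the 7 fits that dropped a library (adjusted p up to 0.137), in all of them when PBS replicate 1 was dropped.

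Xbp1 (NCBI gene 22433, chromosome 11, 5520641 to 5525993) was 69.3, 73.2 and 85.1 FPKM under PBS and 109, 168, 112 and 174 FPKM under sHA-X, with the same lower and upper pair of sHA-X libraries. It rose by 0.85 on the log2 scale (SE 0.20, limma adjusted p = 0.034), not called in the fits that left out a PBS library or sHA-X replicate 2 or 4 (up to 0.125), and its Jchain slope was 0.49 (adjusted p = 0.023). The summed RNA of Xbp1 does not separate its spliced, active form. Derl3, Fkbp11 and Txndc5, ER genes known for high levels in plasma cells, had Jchain slopes of 1.06, 0.99 and 0.78 (adjusted p = 0.021, 0.021 and 0.012 by limma) and did not pass between the groups (adjusted p = 0.14, 0.23 and 0.32). Derl3 was 4.81, 8.36 and 7.65 FPKM under PBS and 10.6, 31.1, 10.7 and 26.8 FPKM under sHA-X. Ppp1r15a, the phosphatase subunit Gadd34 that acts after Perk, was 87.1, 98.2 and 31.9 FPKM under PBS and 59.6, 39.2, 62.9 and 39.0 FPKM under sHA-X (adjusted p = 0.61).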

How the data were processed

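Spleen RNA was sequenced from 3 PBS and 4 sHA-X libraries, 30 days after hepatocyte transplantation. The authors deposited 1 table of FPKM values with gene symbols. Per the submitters' processing notes fastp, HISAT2, HTSeq, DESeq2 and R 3.2.0 were used with build mm10; their roles and the strandedness of the library kit are not given in the sources used here. The unit was read from the values: every gene above 0 in at least 2 libraries (16889) gave whole reads to within 0.02 read, or 0.05 where 0.02 failed, which supplied the depths (29543963 to 37141978 reads). Genes with a mean of at least 1 FPKM (11920) were fitted on log2(FPKM + 1) with limma 3.58.1 (trend, robust) in R 4.3.3, with Benjamini-Hochberg adjustment over all of them and calls under 0.05. Fold changes on this scale understate those of low genes. The fit was run on simulated data with 2-fold and 4-fold changes, where it recovered 94% and 96% of them, and 17 of 207 calls were false. For simulated Jchain slopes of 1 it recovered 90.5%, and 18 of 199 calls were false. Most changes and slopes of the 41 genes were smaller than those simulated. The voom form and the Jchain slopes were added after the data were seen. All 41 genes and Jchain are described, with up to 8 of the other ER genes called (smallest p) and 5 given whatever their values; the members and lists were chosen with earlier results of these data known. Positions are from RefSeq, build GRCm38.p6. Replicate numbers did not pair the groups.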

Additional observations from a re-analysis of the deposited data

Results flagged for a closer look

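Among the 42 genes checked (the 41 ER genes and Jchain), 1 had a library that stood apart within the sHA-X group. Sil1 was 3.38 FPKM in sHA-X replicate 3 against 4.04 to 4.09 FPKM in the other sHA-X libraries, a gap of 0.931 of the group's whole range, above Dixon's 95% critical value for 4 samples. It was still above all PBS libraries (2.38 to 2.77 FPKM). Chance flags about 1 in 20 such groups.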

How the results depend on the processing

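The count of ER genes that rose (19 of 41) was 16 to 19 under the other pseudocount, no filter on low values, no robust step, both scalings and voom. It ranged from 6 to 19 with 1 library left out, was 2 without PBS replicate 2 and sHA-X replicate 2 together and 0 with Jchain in the fit. The count that fell ranged from 0 to 1 with 1 library left out. Other ER genes that rose (15) were 6 without the filter (6.90%, against 5.84% of all genes) and 6 with upper quartile scaling (7.23%, against 7.06%), 1 to 18 with 1 library left out, 1 without both second libraries and 1 with Jchain in the fit. With a replicate block, in which the shared numbers did not pair the groups (correlations of deviations 0.15, -0.214 and -0.286 for numbers 1 to 3), 1 of the 41 (2.44%) and 1 of the other ER genes (1.20%) rose, against 2.32% of all genes. The change of Jchain (1.38) passed without the robust step (adjusted p = 0.0475 by limma), and ranged from 1.16 to 1.59 with 1 library left out. Called Jchain slopes among the 41 (3) were 0 without the filter, 0 to 6 with 1 library left out and 0 without both second libraries. These slope counts are given without the counts over all genes.

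With Jchain in the fit the log2 change turned sign for Hsp90b1 (-0.0892), Herpud1 (-0.0412), Edem1 (-0.25), Edem2 (-0.18), Derl2 (-0.0513), Sec61a1 (-0.0391), Sec61b (-0.25), Ssr2 (-0.0246), Ssr3 (-0.0942), Ssr4 (-0.0221), Rpn1 (-0.0550), Atf6 (-0.24), Ern1 (-0.23), Derl3 (-0.20), Fkbp11 (-0.47), Txndc5 (-0.52), Ddit3 (0.0548), Atf4 (0.0922) and Ppp1r15a (0.56), none of them called in the main fit. Sec61b ranged from -0.0105 (without sHA-X replicate 2) to 0.102 with 1 library left out and was -0.0086 without both second libraries. Atf4 ranged from -0.135 (without PBS replicate 3) to 0.11 (without PBS replicate 2) with 1 library left out, and was 0.13 without both second libraries. The cause was not tested. Fits that leave out libraries have fewer samples. The fewest reads behind a value of the 41 genes were 258 (Casp12).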

Other observations

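Set against Jchain library by library, the ER genes did not keep 1 ratio to it. Hspa5 per 100 Jchain FPKM was 89.4, 62.3 and 56.9 under PBS and 51.0, 29.4, 51.8 and 26.6 under sHA-X, falling where Jchain was higher. For Creld2 the ratio was 7.40, 7.04 and 6.70 under PBS and 6.99, 5.78, 7.77 and 4.95 under sHA-X. For Xbp1 it was 20.9, 16.2 and 15.7 under PBS and 14.8, 10.1, 15.1 and 9.62 under sHA-X. Derl3 kept the narrowest range, with 1.45, 1.85 and 1.41 under PBS and 1.44, 1.87, 1.45 and 1.48 under sHA-X. These ratios share Jchain as their denominator and are given as values only.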
